A study of Mus musculus with 15 samples.

Results

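The mature miRNAs mmu-miR-103-3p, mmu-miR-107-3p, mmu-miR-378a-3p and mmu-miR-378a-5p, made from introns of metabolic genes and written below without the species prefix, were followed in Kupffer cells, macrophages that reside in the mouse liver. They were taken by name and make up 4 of the 248 miRNAs listed at both ages. A further row, miR-107-5p, comes from the other arm of the miR-107 hairpin. It lay between 0.0422 and 0.641 RPM and was too low to be tested. Small RNA was sequenced in 15 libraries of Kupffer cells from C57BL/6J mice (wt) and from ob/ob mice, which carry no functional leptin in any cell and become obese. At 9 weeks of age there were 4 wt and 3 ob/ob libraries, at 14 weeks 4 of each genotype, and the labels name no treatment. The labels give neither the background strain of the ob/ob mice, nor how the cells were isolated, nor whether animals were pooled or each replicate was a different animal. A p-value here therefore reflects the scatter among these libraries, part of which may be technical.

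A miRNA hairpin in an intron can be made as part of the transcript of its host gene. Drosha and Dicer cut the hairpin into a duplex whose arms can each be loaded into Argonaute. The arm that is kept pairs with target mRNAs mainly through its seed, bases 2 to 8. The hosts of miR-103 and miR-107 are the pantothenate kinases, which set the rate of coenzyme A synthesis. In mouse liver and fat, miR-103 and miR-107 are known to lower insulin sensitivity and to target caveolin-1, a membrane protein that stabilises the insulin receptor. The host of miR-378a is Ppargc1b, which encodes PGC-1β, a coactivator of mitochondrial genes, and the miR-378a arms are known in mouse for limiting mitochondrial fatty acid metabolism.

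In the GENCODE vM21 annotation (GRCm38), miR-103-3p has 2 hairpins. Mir103-1 lies at chr11:35782396-35782481 on the plus strand inside Pank3, and Mir103-2 at chr2:131288052-131288137 on the plus strand inside Pank2. Mir107 lies at chr19:34820687-34820773 on the minus strand inside Pank1. Each hairpin has the strand of its host. Mir103-1 is spanned by 1 of 1 Pank3 transcripts, Mir103-2 by 7 of 8 Pank2 transcripts and Mir107 by 3 of 4 Pank1 transcripts, and none of these transcripts has an exon over the hairpin. Mir378a is spanned by 3 of 3 transcripts of Ppargc1b on the same strand, again with no exon over it.

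The sequences show why miR-103-3p and miR-107-3p need to be read together, and how their seed stands to that of the miR-15/16 group. They are RefSeq mature sequences on GRCm38.p6, 5′ to 3′, with the seed in capitals.
miR-103-3p: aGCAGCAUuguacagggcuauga
miR-107-3p: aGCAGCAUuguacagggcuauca
miR-16-5p: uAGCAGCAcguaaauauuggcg
miR-195a-5p: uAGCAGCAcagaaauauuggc
miR-497a-5p: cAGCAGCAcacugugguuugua
miR-322-5p: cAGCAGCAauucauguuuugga
miR-103-3p and miR-107-3p share their seed and, counted from 1 at the 5′ end of 23 bases, differ only by G22C (miR-103-3p first). A read that stops before base 22 cannot be given to either of them by sequence, and the sources used here do not give the rule by which such reads were assigned. The sum of both does not depend on that rule as long as each read was counted once. The 4 miRNAs of the miR-15/16 group carry the same AGCAGC run 1 base further in, starting at base 2 and not at base 1, so that their seeds are shifted against each other.

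The levels are in RPM, reads per 1000000 reads, a unit read from the values. The depth implied by the value of 1 read was 13.4 to 22.8 M reads (M, 1000000) in wt and 25.9 to 33.9 M reads in ob/ob at 9 weeks. At 14 weeks it was 9.08 to 39.0 M reads in wt and 44.0 to 98.1 M reads in ob/ob, so the genotypes did not overlap in depth at either age. The summed RPM of all listed miRNAs was lower in ob/ob at 9 weeks (230785 to 250422 RPM against 297668 to 358621 RPM in wt). At 14 weeks it overlapped, and wt replicate 1 stood apart with 147387 RPM against at least 272978 RPM in the other libraries of that age. Of the myeloid markers, miR-142a-5p (1756 to 4320 RPM) and miR-511-3p (53.6 to 183 RPM) were present in every library, whereas miR-142a-3p was listed at 0 in 5 of 15. Of 6 hepatocyte markers, 5 were listed, none at 0, and their summed level was 1156 to 2273 RPM in wt and 4035 to 5597 RPM in ob/ob at 9 weeks, and 1154 to 1738 RPM and 3296 to 6950 RPM at 14 weeks. Most of this sum at 9 weeks was miR-192-5p, with means of 1556 RPM in wt and 4494 RPM in ob/ob. The hepatocyte marker miR-122-5p had means of 46.3 and 166 RPM at that age. The 1 erythroid marker of 3 that was listed, miR-144-5p, lay between 0.331 and 1.49 RPM in wt and between 11.6 and 32.4 RPM in ob/ob. Both endothelial markers were listed, with sums of 10833 to 63153 RPM over all groups and miR-126a-3p at 0 in 1 library. In such bulk samples, fewer cells of a type and less RNA per cell cannot be told apart.

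miR-378a-3p was the highest and miR-378a-5p the lowest of the 4 in 15 of 15 libraries. Among the 248 listed miRNAs of a library, miR-378a-3p held places 15 to 22, miR-107-3p places 51 to 65, miR-103-3p places 59 to 78 and miR-378a-5p places 85 to 109. miR-107-3p lay above miR-103-3p in 13 of 15 libraries, and the exceptions were 2 of the 4 wt libraries of 14 weeks, the group in which the means of these neighbours differed by less than their spread. Levels of different miRNAs also depend on how well each is ligated and amplified, which RPM does not correct. The fewest reads behind a value were 678 for miR-103-3p, 557 for miR-107-3p, 18665 for miR-378a-3p and 132 for miR-378a-5p. Counting error at these reads was 3.84%, 4.24%, 0.732% and 8.70%, and the spread between replicates of a group was 8.44% to 50.9% of the mean over the 4 miRNAs. These reads are not independent molecules, so the figure for counting covers counting error only.

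**Figure D1:**
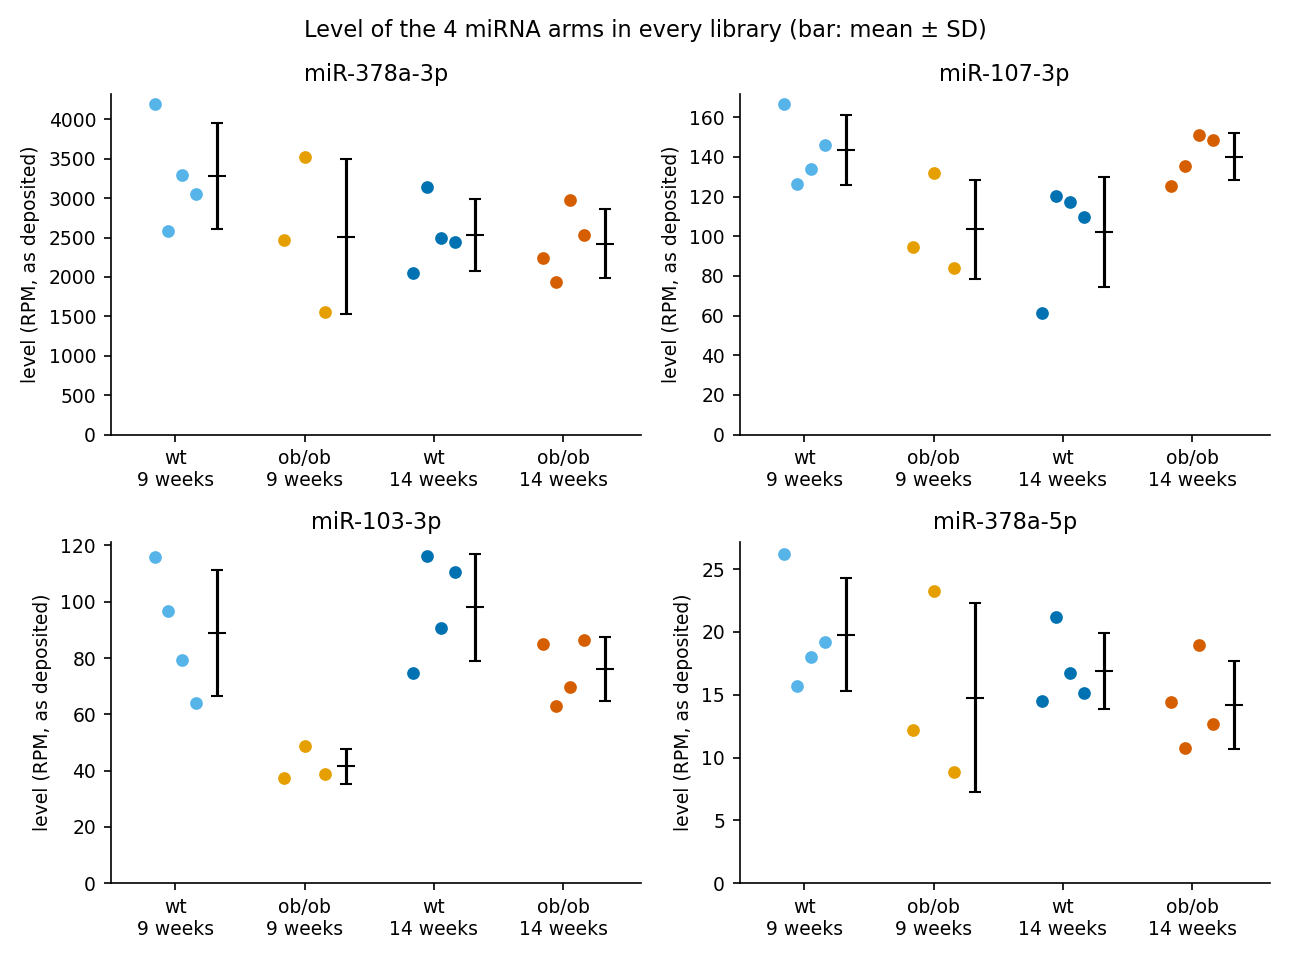
Level of each miRNA in RPM (vertical axes, each starting at 0) in every library of the 4 groups, with the mean and SD beside the points. The 3 ob/ob libraries of 9 weeks sit below all wt libraries of that age for miR-103-3p, and the ob/ob libraries of 14 weeks sit above all wt libraries of that age for miR-107-3p.

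miR-103-3p, made from the Pank3 and Pank2 introns, was the member with a called difference, and it was lower in ob/ob at 9 weeks. Its levels at 9 weeks were 116, 96.6, 79.2 and 63.9 RPM in wt replicates 1 to 4 and 37.4, 48.8 and 38.6 RPM in ob/ob replicates 1 to 3. All ob/ob libraries lay below all wt libraries. The means were 88.9 ± 22.5 RPM (SD, n = 4) and 41.6 ± 6.25 RPM (SD, n = 3). The log2 fold change of ob/ob against wt was −1.06 ± 0.24 (SE), with a 95% interval of −1.62 to −0.51 and an adjusted p of 0.0111 in limma. This made 1 of the 4 members called at 9 weeks, where 37.4% of the 179 tested miRNAs were called, 32.4% lower, and 41.3% had all ob/ob libraries below all wt libraries. The median log2 fold change of all tested miRNAs was −0.51 at this age, so that miR-103-3p lay 0.56 below the median. After median-ratio rescaling, which brings the median miRNA of each library to the same level, the log2 fold change was −0.56 ± 0.21 (SE) with an adjusted p of 0.0852, and the call was lost. On that scale the means were 74.4 ± 14.7 RPM (SD, n = 4) in wt and 49.8 ± 5.58 RPM (SD, n = 3) in ob/ob, and the genotypes overlapped.

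Some markers of macrophages and of other cell types were called lower beside it at 9 weeks, as were 32.4% of all tested miRNAs. Others rose: 2 of 4 hepatocyte markers tested and the 1 erythroid marker were called higher, beside 5.03% of all. miR-511-3p, a macrophage miRNA and 1 of 2 myeloid markers tested, fell from 159 ± 11.8 RPM (SD, n = 4) in wt to 77.9 ± 23.9 RPM (SD, n = 3) in ob/ob, a log2 fold change of −1.07 (adjusted p = 0.00984, limma). After rescaling it was −0.56 (adjusted p = 0.0860, limma). The other myeloid marker tested, miR-142a-5p, was not called as deposited, though its unadjusted p was below 0.05. Of 2 endothelial markers tested, 1 was called lower, miR-126a-3p. It fell from 2943 ± 515 RPM (SD, n = 4) to 1580.0 ± 507 RPM (SD, n = 3, adjusted p = 0.0230, limma), and this call was lost after rescaling (adjusted p = 0.273, limma). Of 6 stellate and mesenchymal markers tested, 3 were called lower, miR-199a-3p (902 ± 126 to 317 ± 99.9 RPM, SD, n = 4 and 3, adjusted p = 0.00525, limma), miR-214-5p and miR-214-3p. After rescaling 1 was, miR-199a-3p (adjusted p = 0.0371, limma), beside 10.2% of all tested miRNAs. On either scale 4 of the 6 had a log2 fold change below 0. The listed stellate and mesenchymal markers summed to 1385 to 1885 RPM in wt and 1033 to 1644 RPM in ob/ob, so the genotypes overlapped. The part of these cell types in the value of miR-103-3p was not tested.

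At 14 weeks miR-103-3p did not pass the test on either scale. The wt replicates 1 to 4 held 74.7, 116, 90.8 and 110.4 RPM and the ob/ob replicates 1 to 4 held 85.1, 63.1, 69.8 and 86.4 RPM. The genotypes overlapped only through wt replicate 1, the library with the low sum of listed miRNAs. On the log2 scale ob/ob differed from wt by −0.36 ± 0.25 (SE, adjusted p = 0.396, limma) with a 95% interval of −0.92 to 0.21, beside a median of 0.20 over the 171 tested miRNAs. Without wt replicate 1 it was −0.48 ± 0.19 (SE, adjusted p = 0.103, limma). After rescaling it was −0.57 ± 0.22 (SE, adjusted p = 0.0933, limma), with means of 102.9 ± 19.7 RPM (SD, n = 4) in wt and 69.5 ± 16.7 RPM (SD, n = 4) in ob/ob. Within lane 1 the log2 fold change as deposited was −0.35 and within lane 2 it was −0.37. The distance of miR-103-3p to the median of all tested miRNAs was thus −0.56 at 9 weeks and −0.55 at 14 weeks as deposited.

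miR-107-3p, made from the Pank1 intron, passed the test at neither age. At 9 weeks it held 167, 126, 134 and 146 RPM in wt replicates 1 to 4 and 94.8, 132 and 84.2 RPM in ob/ob replicates 1 to 3. The ob/ob replicates 1 and 3 lay below all wt libraries and replicate 2 lay among them. The means were 143 ± 17.6 RPM (SD, n = 4) and 103.5 ± 24.9 RPM (SD, n = 3). Its log2 fold change was −0.48 ± 0.21 (SE, adjusted p = 0.104, limma), close to the median of all tested miRNAs, and its 95% interval ran from −0.97 to 0.0012. Without ob/ob replicate 2 it was −0.67 ± 0.17 (SE, adjusted p = 0.0208, limma), which is past the threshold. After rescaling it was 0.022 ± 0.18 (SE, adjusted p = 0.950, limma) with a 95% interval of −0.40 to 0.45, so its direction at 9 weeks is not settled by these values.

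At 14 weeks all ob/ob libraries lay above all wt libraries for miR-107-3p. The wt replicates 1 to 4 held 61.3, 120.4, 117 and 109.7 RPM and the ob/ob replicates 1 to 4 held 126, 136, 151 and 148 RPM. The lowest wt value belonged to replicate 1, and the gap between the highest wt and the lowest ob/ob library was narrow. The means were 102.2 ± 27.6 RPM (SD, n = 4) and 140.1 ± 11.8 RPM (SD, n = 4). The log2 fold change of 0.50 ± 0.28 (SE) had a 95% interval of −0.14 to 1.13 and an adjusted p of 0.265 in limma. Of the 171 tested miRNAs, 22.2% had all ob/ob libraries above all wt libraries. Without wt replicate 1 the log2 fold change was 0.27 ± 0.16 (SE, adjusted p = 0.262, limma). It was 0.60 within lane 1, which holds that library, and 0.40 within lane 2. On the rescaled levels the genotypes again did not overlap, with 99.0 to 106.2 RPM in wt and 106.4 to 158 RPM in ob/ob, as was so in this direction for 16.1% of the 168 miRNAs tested. On this scale the log2 fold change was 0.28 ± 0.17 (SE, adjusted p = 0.279, limma).

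In the counts over the 4 members, limma called 0 of 4 at 14 weeks, with 0 of 4 at an unadjusted p below 0.05, where 15.2% of all tested miRNAs were called. After rescaling it called 0 of 4 at each age, with 1 of 4, miR-103-3p, at an unadjusted p below 0.05 each time. The share called among all tested miRNAs was then 21.5% at 9 weeks and 28.6% at 14 weeks. With a linear correction for the GC content of the mature sequence added, the log2 fold change of miR-103-3p was −0.53 ± 0.21 (SE, adjusted p = 0.0973, limma) at 9 weeks and −0.52 ± 0.21 (SE, adjusted p = 0.114, limma) at 14 weeks. That of miR-107-3p was 0.046 ± 0.19 (SE, adjusted p = 0.868, limma) and 0.34 ± 0.17 (SE, adjusted p = 0.170, limma). In this fit 24.8% of 157 miRNAs were called at 9 weeks and 24% of 150 at 14 weeks. Differences between the genotypes in depth, in the erythroid marker and in some markers of other cell types stand beside all these values. At 14 weeks 2 of 4 hepatocyte markers tested were called higher on either scale, beside 11.7% of all as deposited and 15.5% rescaled. After rescaling these were miR-192-5p (adjusted p = 0.0104, limma) and miR-215-5p (adjusted p = 0.0457, limma). miR-122-5p was not among those called after rescaling (log2 fold change 0.35 ± 0.76, SE, adjusted p = 0.771, limma). As deposited at 9 weeks, 1 myeloid, 1 endothelial and 3 stellate markers were called lower, and after rescaling only 1 stellate marker was. Higher at 9 weeks after rescaling were 3 of 4 hepatocyte and 1 of 4 bile duct markers, beside 11.3% of all. At 14 weeks 1 of 4 bile duct markers was called higher on either scale, beside 11.7% and 15.5% of all. After rescaling this was miR-141-3p (log2 fold change 0.99 ± 0.31, SE, adjusted p = 0.0457, limma). So was 1 of 6 stellate markers, miR-143-3p (1.05 ± 0.34, SE, adjusted p = 0.0488, limma), with 3 of the 6 below 0. The part of these differences in the results was not tested.

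**Figure D2:**
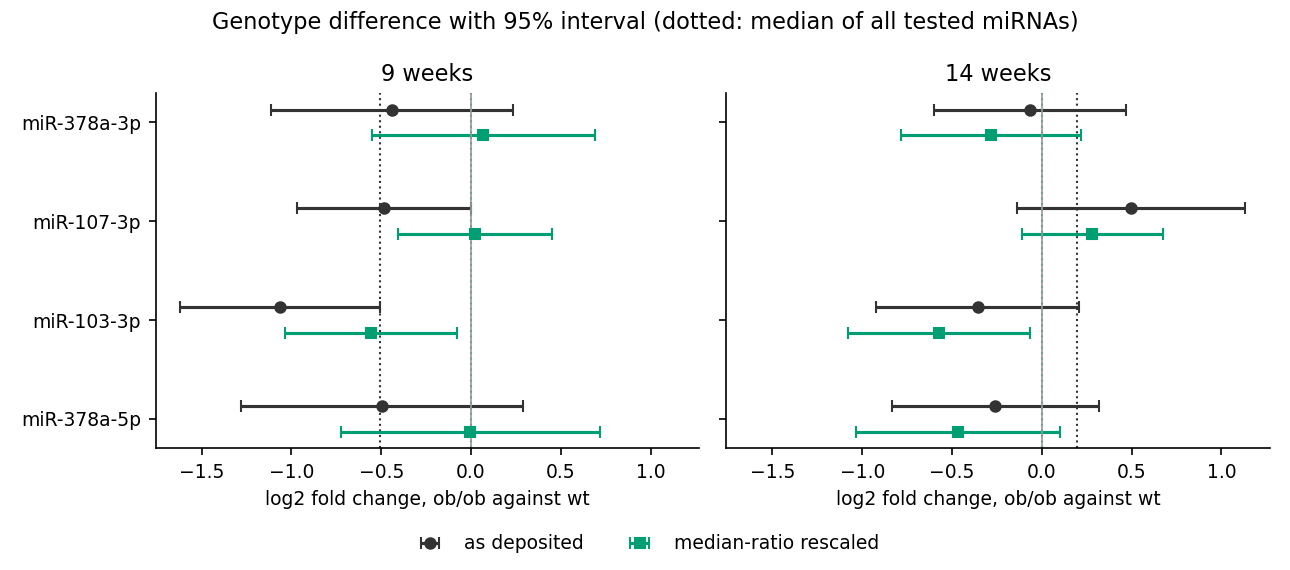
Log2 fold change of ob/ob against wt (horizontal axis) with its 95% interval for the 4 miRNAs at 9 and 14 weeks, as deposited (circles) and after median-ratio rescaling (squares), with dotted lines at the median of all tested miRNAs on each scale. miR-103-3p is the member farthest below the median at both ages, by 0.56 and 0.55 as deposited, and miR-107-3p lies at the median at 9 weeks and above it at 14 weeks.

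**Figure D3:**
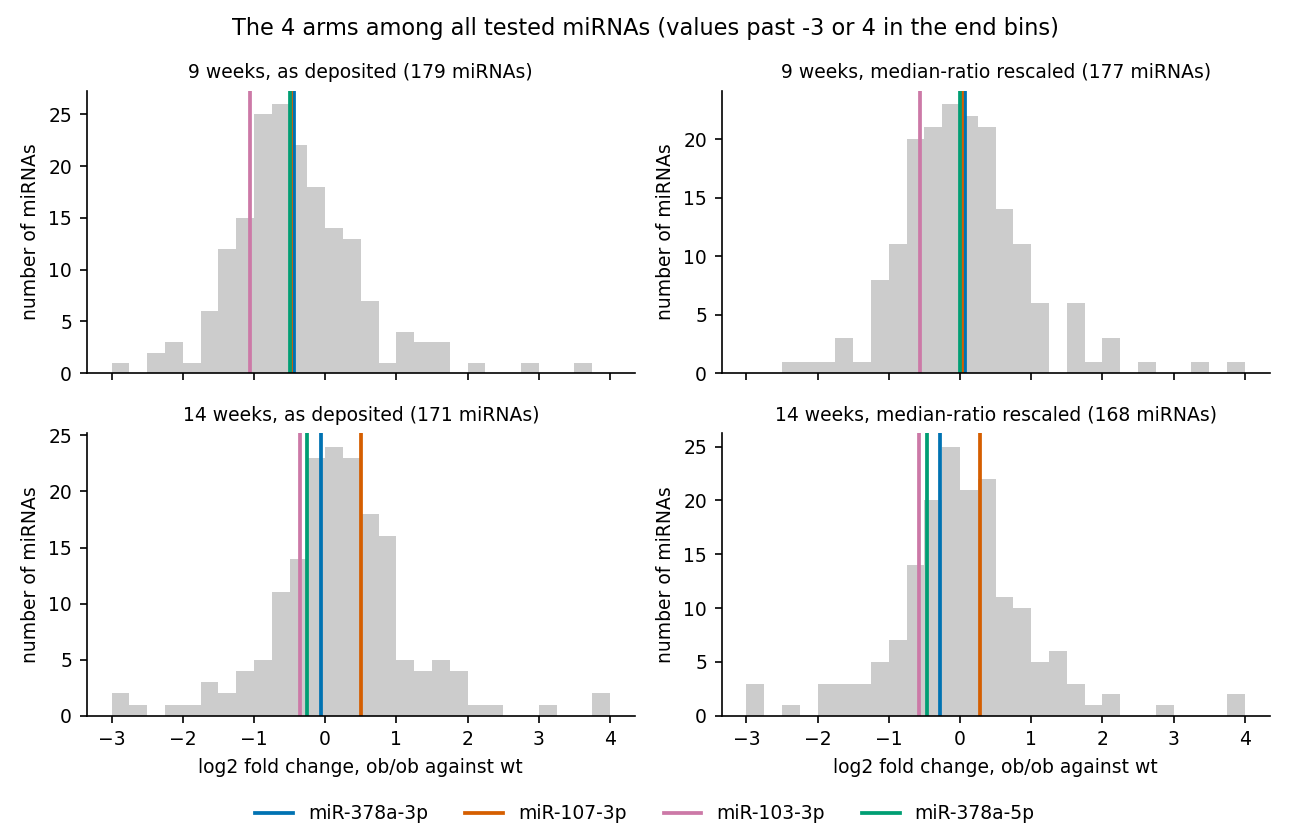
Histograms of the log2 fold change of all tested miRNAs (vertical axis, number of miRNAs) with lines at the 4 members, for each age and scale. The lines of miR-107-3p, miR-378a-3p and miR-378a-5p fall close together at 9 weeks, and the percentile of miR-103-3p lies between 19.6 and 22.0 in the 4 panels.

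The balance between miR-103-3p and miR-107-3p within a library does not change with the scaling of that library. At 9 weeks miR-107-3p made up 59.0%, 56.7%, 62.8% and 69.6% of the reads of the pair in wt replicates 1 to 4 and 71.7%, 73.0% and 68.6% in ob/ob replicates 1 to 3. The genotypes overlapped through wt replicate 4. At 14 weeks the share was 45.1%, 50.8%, 56.4% and 49.8% in wt replicates 1 to 4 and 59.6%, 68.2%, 68.4% and 63.2% in ob/ob replicates 1 to 4, with no overlap. The mean share was 62.0% ± 5.66 (SD, n = 4) in wt and 71.1% ± 2.27 (SD, n = 3) in ob/ob at 9 weeks, and 50.5% ± 4.63 (SD, n = 4) and 64.9% ± 4.26 (SD, n = 4) at 14 weeks. The share was higher in ob/ob by 9.08 percentage points at 9 weeks and by 14.3 percentage points at 14 weeks, and leaving out each library in turn gave 7.29 to 11.6 and 12.5 to 16.3 percentage points.

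Such a separation was common among pairs of miRNAs. Of the ratios between all pairs of tested miRNAs above 0 in every library, 40.5% had genotypes that did not overlap at 9 weeks and 33.4% at 14 weeks. At 14 weeks the higher share in ob/ob held within each sequencing lane. In lane 1, wt held 45.1% and 50.8% and ob/ob 59.6% and 68.2%. In lane 2, wt held 56.4% and 49.8% and ob/ob 68.4% and 63.2%. All libraries of 9 weeks were in lane 2.

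The sum of miR-103-3p and miR-107-3p takes the reads listed under both names together. At 9 weeks it was 283, 223, 213 and 210.1 RPM in wt replicates 1 to 4 and 132, 180.4 and 123 RPM in ob/ob replicates 1 to 3. All ob/ob libraries lay below all wt libraries, as was so for 41.3% of the single miRNAs tested, but not after rescaling, when wt held 219, 183, 198 and 180.3 RPM and ob/ob 159, 207 and 154 RPM and ob/ob replicate 2 exceeded 3 of the 4 wt libraries. At 14 weeks it was 136, 237, 208 and 220.2 RPM in wt and 210.6, 199, 221 and 235 RPM in ob/ob. All ob/ob libraries lay within the wt range at this age. The means were 232 ± 34.1 RPM (SD, n = 4) and 145 ± 30.9 RPM (SD, n = 3) at 9 weeks, and 200.3 ± 44.4 RPM (SD, n = 4) and 216 ± 15.3 RPM (SD, n = 4) at 14 weeks.

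**Figure D4:**
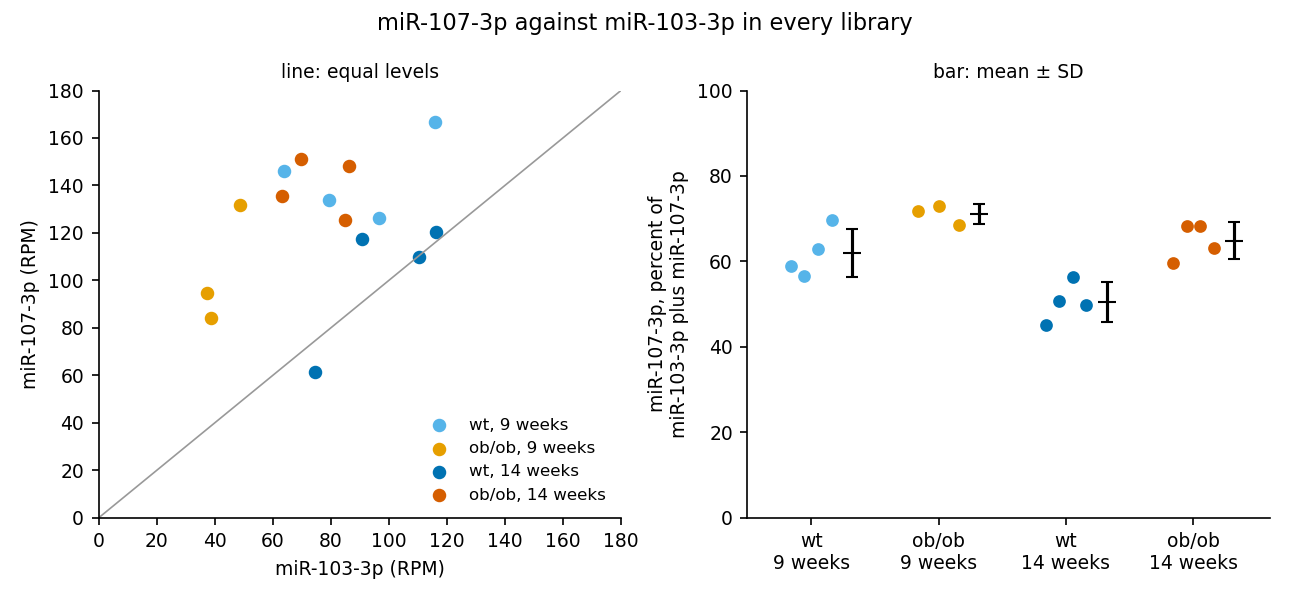
Left, level of miR-107-3p against miR-103-3p in RPM in every library, with a line at equal levels. Right, miR-107-3p as a percent of both in every library with mean and SD; the 14-week ob/ob libraries (59.6% to 68.4%) lie above the 14-week wt libraries (45.1% to 56.4%).

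miR-378a-3p, the abundant arm of the hairpin in Ppargc1b, passed the test neither at 9 nor at 14 weeks. At 9 weeks it held 4194, 2587, 3288 and 3052 RPM in wt replicates 1 to 4 and 2471, 3516 and 1552 RPM in ob/ob replicates 1 to 3. The ob/ob replicates 1 and 3 lay below all wt libraries, whereas ob/ob replicate 2 exceeded 3 of the 4 wt libraries. The means were 3280.1 ± 675 RPM (SD, n = 4) and 2513 ± 983 RPM (SD, n = 3), with a log2 fold change of −0.44 ± 0.29 (SE, adjusted p = 0.263, limma) and a 95% interval of −1.12 to 0.24. After rescaling the log2 fold change was 0.069 ± 0.27 (SE, adjusted p = 0.885, limma).

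At 14 weeks miR-378a-3p held 2056, 3146, 2493 and 2440 RPM in wt replicates 1 to 4 and 2247, 1934, 2975 and 2538 RPM in ob/ob replicates 1 to 4. The genotypes overlapped. The means were 2534 ± 453 RPM (SD, n = 4) and 2424 ± 443 RPM (SD, n = 4), and the log2 fold change was −0.065 ± 0.24 (SE, adjusted p = 0.863, limma) with a 95% interval of −0.60 to 0.47. After rescaling it was −0.28 ± 0.22 (SE, adjusted p = 0.382, limma). Within lane 1 the log2 fold change at 14 weeks was −0.29 and within lane 2 it was 0.16. The value of miR-378a-3p also depends on how reads shared with its close relatives miR-378b, miR-378c and miR-378d were assigned, and those were not analysed here.

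miR-378a-5p, the scarce arm of the same hairpin, followed miR-378a-3p from library to library. At 9 weeks it held 26.2, 15.7, 18.0 and 19.2 RPM in wt replicates 1 to 4 and 12.2, 23.3 and 8.88 RPM in ob/ob replicates 1 to 3. As for the other arm, ob/ob replicate 2 was the highest ob/ob library and lay within the wt range. The log2 fold change was −0.50 ± 0.34 (SE, adjusted p = 0.278, limma) with a 95% interval of −1.28 to 0.29, and −0.0030 ± 0.31 (SE, adjusted p = 0.996, limma) after rescaling. Without ob/ob replicate 2 it was −0.87 ± 0.27 (SE, adjusted p = 0.0397, limma), which is past the threshold, while miR-378a-3p without that library was −0.72 ± 0.26 (SE, adjusted p = 0.0656, limma).

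At 14 weeks miR-378a-5p held 14.5, 21.2, 16.7 and 15.2 RPM in wt replicates 1 to 4 and 14.4, 10.8, 19.0 and 12.7 RPM in ob/ob replicates 1 to 4. The genotypes overlapped through ob/ob replicate 3. For this age the log2 fold change was −0.26 ± 0.26 (SE, adjusted p = 0.551, limma) with a 95% interval of −0.84 to 0.32, and −0.47 ± 0.25 (SE, adjusted p = 0.218, limma) after rescaling. Within lane 1 it was −0.48 and within lane 2 −0.037. The intervals of both arms at both ages include 0 and also changes of the size measured for miR-103-3p at 14 weeks, so they do not show that the arms were alike in wt and ob/ob.

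The ratio of the 3p to the 5p arm was between 141 and 203 in every library. At 9 weeks it was 160.0, 165, 183 and 159 in wt replicates 1 to 4 and 203, 151 and 175 in ob/ob replicates 1 to 3. At 14 weeks it was 141, 148, 149 and 161 in wt and 156, 180 and 157 in ob/ob replicates 1 to 3, with 200.2 in ob/ob replicate 4. The genotypes overlapped at both ages. The means were 167 ± 11.2 (SD, n = 4) and 176 ± 25.8 (SD, n = 3) at 9 weeks and 149.8 ± 8.09 (SD, n = 4) and 173 ± 21.2 (SD, n = 4) at 14 weeks. Leaving out each library in turn moved the difference of ob/ob from wt between −3.52 and 22.2 at 9 weeks and between 14.2 and 29.0 at 14 weeks.

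**Figure D5:**
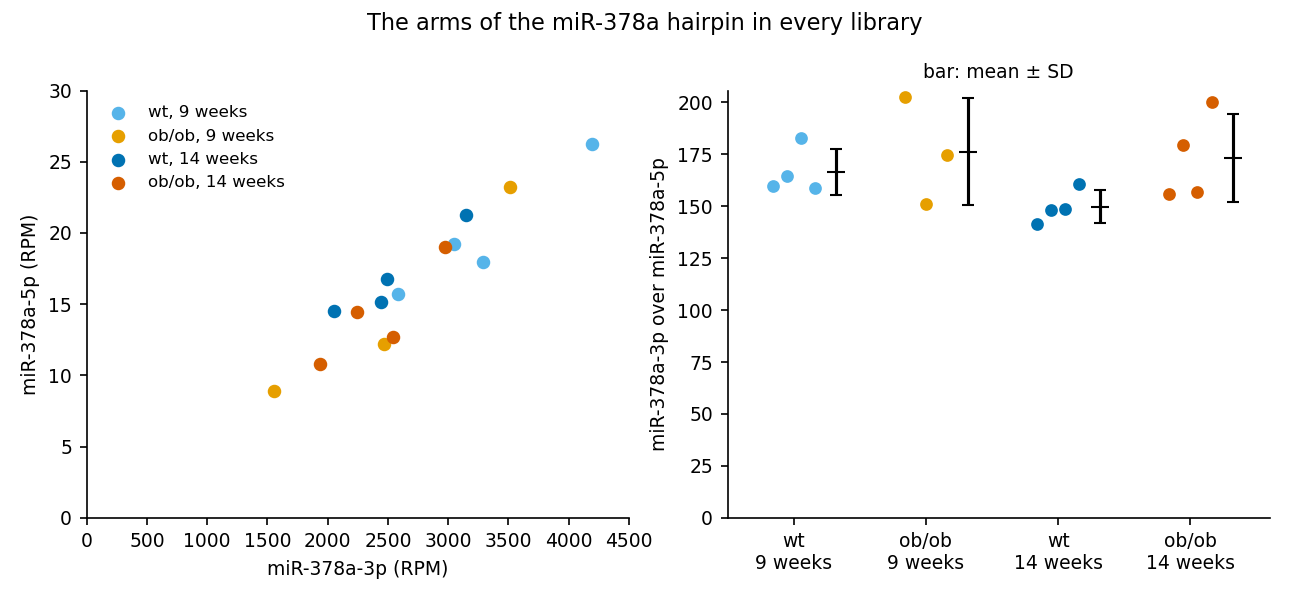
Left, level of miR-378a-5p against miR-378a-3p in RPM in every library. Right, the ratio of the 3p to the 5p arm in every library with mean and SD, which overlaps between the genotypes at both ages.

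The genotype difference itself was compared between the ages in a model of all 15 libraries. As deposited, the log2 fold change at 14 weeks exceeded that at 9 weeks by 0.71 ± 0.33 (SE, adjusted p = 0.190, limma) for miR-103-3p and by 0.98 ± 0.35 (SE, adjusted p = 0.132, limma) for miR-107-3p. The difference was 0.38 ± 0.37 (SE, adjusted p = 0.518, limma) for miR-378a-3p and 0.24 ± 0.42 (SE, adjusted p = 0.737, limma) for miR-378a-5p. The median over the 187 tested miRNAs was 0.68, with miR-103-3p and miR-107-3p above it and both miR-378a arms below it. After rescaling the median was −0.019 and the values were −0.014 ± 0.30, 0.26 ± 0.23, −0.35 ± 0.36 and −0.47 ± 0.40 (SE) in the same order. limma called 0 of 187 miRNAs on either scale (0%), with 48 at an unadjusted p below 0.05 as deposited, miR-107-3p the only member among them, and 16 after rescaling, none of them a member.

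The miR-15/16 seed group was described beside miR-103-3p and miR-107-3p because of the shifted AGCAGC run. Of 8 miRNAs in the list, 4 were listed and tested. At 9 weeks miR-322-5p, a miRNA of muscle differentiation and the cell cycle, fell from 335 ± 26.9 RPM (SD, n = 4) in wt to 162 ± 18.1 RPM (SD, n = 3) in ob/ob, a log2 fold change of −1.04 ± 0.17 (SE, adjusted p = 0.00485, limma). miR-497a-5p, made from the same primary transcript as miR-195a-5p, fell from 146 ± 50.0 RPM (SD, n = 4) to 64.1 ± 20.3 RPM (SD, n = 3), a log2 fold change of −1.18 ± 0.33 (SE, adjusted p = 0.0227, limma). miR-195a-5p had a log2 fold change of −0.64 (adjusted p = 0.0882, limma). miR-16-5p, the most abundant of the group, was at 14135 ± 2122 RPM (SD, n = 4) and 10921 ± 1858 RPM (SD, n = 3), with an adjusted p of 0.136 in limma. Thus 2 of 4 were called lower, beside 32.4% of all tested miRNAs, and the median of the group was −0.84, beside −0.51 for all. After rescaling limma called 0 of 4, with 1 at an unadjusted p below 0.05, beside 21.5% of all called, and the median was −0.33. At 14 weeks it called 0 of 4 on either scale, with 0 at an unadjusted p below 0.05, beside 15.2% of all called as deposited and 28.6% rescaled, and the median was 0.12 as deposited and −0.098 rescaled.

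miRNAs of other introns gave a view of further hairpins that lie in introns. Some of them, miR-26a-5p and miR-30c-5p included, come from more than 1 locus. Of 28 in the list 15 were listed, and 14 were tested at 9 weeks. Of these, 7 were lower and 0 higher in ob/ob as deposited, with a median of −0.60, beside 32.4% of all tested miRNAs called lower and 5.03% called higher. The lowest p belonged to the arms of miR-423, miR-30c-5p and miR-26a-5p, of which miR-26a-5p fell from 27078 ± 1802 RPM (SD, n = 4) to 17447 ± 822 RPM (SD, n = 3). After rescaling 3 of 14 were lower, miR-423-5p, miR-423-3p and miR-30c-5p, beside 10.2% called lower and 11.3% called higher among all. At 14 weeks 1 of 13 was lower as deposited, miR-423-5p, which fell from 547 ± 58.6 RPM (SD, n = 4) to 147 ± 89.1 RPM (SD, n = 4), a log2 fold change of −2.06 ± 0.38 (SE, adjusted p = 0.00631, limma). After rescaling 3 of 13 were lower, again both arms of miR-423 and miR-30c-5p, and 1 was higher, miR-30e-5p (adjusted p = 0.0192, limma). Among all tested miRNAs at 14 weeks, 3.51% were called lower and 11.7% higher as deposited, and 13.1% and 15.5% after rescaling.

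miRNAs known for roles in lipid, insulin and obesity biology made the third list, with 11 of 17 listed and 10 tested. At 9 weeks 1 was higher and 3 were lower as deposited, beside 5.03% higher and 32.4% lower among all tested miRNAs, so that the share called lower was near that of all. miR-34a-5p, a target of p53 that represses the deacetylase Sirt1, rose from 5.54 ± 1.72 RPM (SD, n = 4) to 13.6 ± 1.51 RPM (SD, n = 3), with an adjusted p of 0.00984 in limma. miR-222-3p, miR-29c-3p and miR-29a-3p fell, miR-222-3p from 372 ± 12.8 RPM (SD, n = 4) to 168 ± 53.0 RPM (SD, n = 3). After rescaling 1 of 10 was called, miR-34a-5p, which was higher, beside 11.3% of all called higher. At 14 weeks 3 of 10 were higher as deposited: miR-34a-5p, miR-130b-3p (3.77 ± 0.564 RPM to 8.92 ± 1.001 RPM, SD, n = 4 each) and miR-335-3p. After rescaling 5 of 10 were higher and 1 lower, miR-222-3p (log2 fold change −0.93 ± 0.23, SE, adjusted p = 0.0164, limma). Among all tested miRNAs at 14 weeks, 11.7% were called higher as deposited, and 15.5% higher and 13.1% lower after rescaling. The median of the list at 14 weeks was 0.81 as deposited and 0.60 rescaled, beside 0.20 and 0.00066 for all tested miRNAs.

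Likeness across libraries was measured by Pearson's r of log2 rescaled levels, centred within each age, over 15 libraries that differ in depth and lane, among 119 other miRNAs. The arms of miR-378a were each other's closest match, with r = 0.93, followed by miR-339-5p for both (r = 0.84 for the 3p arm and 0.77 for the 5p arm). The third match was miR-22-3p (r = 0.72) for the 3p arm and miR-132-3p (r = 0.73) for the 5p arm. miR-103-3p and miR-107-3p had r = −0.13 with each other. The closest to miR-103-3p were miR-340-3p (r = 0.88), miR-674-3p (r = 0.87) and miR-423-5p (r = 0.82). miR-674-3p averaged 65.7 ± 23.9 RPM (SD, n = 4) in wt and 21.1 ± 9.84 RPM (SD, n = 3) in ob/ob at 9 weeks, and 44.4 ± 5.14 and 15.1 ± 5.47 RPM (SD, n = 4 each) at 14 weeks. The closest to miR-107-3p were miR-21a-5p (r = 0.84), miR-22-3p (r = 0.84) and miR-140-3p (r = 0.83). miR-21a-5p, an abundant miRNA of macrophages, averaged 29081 ± 10074 RPM (SD, n = 4) in wt and 28357 ± 8047 RPM (SD, n = 3) in ob/ob at 9 weeks, and 17999 ± 3141 and 33735 ± 9174 RPM (SD, n = 4 each) at 14 weeks. The values were centred by age and not by group, so genotype differences enter each r.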

How the data were processed

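RNA of 15 Kupffer cell samples was purified with the miRNeasy kit, made into TruSeq Small RNA libraries and run on an Illumina HiSeq instrument, per the labels' protocols. Builds mm10 and GRCm38.p5 and the tools cutadapt and bcl2fastq appear in the submitters' processing notes. How reads were aligned, counted and annotated, and how reads shared between near-identical miRNAs were handled, is not given in the sources used. The deposited tables, 1 per age, were taken as RPM made by the authors. The unit was inferred: within each library, values under 1000 reads fell on whole multiples of a common step (tolerance 0.1 reads), which larger values are too coarse to test, so no count model was used.

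Each age was tested alone with limma 3.58.1 (R 4.3.3) on log2(RPM + 0.5), two-sided, using the trend and robust options and Benjamini-Hochberg adjustment over all tested miRNAs at a threshold of 0.05. Fold changes are on that scale, which understates changes of rare miRNAs. A miRNA was tested with at least 1 RPM in at least 3 libraries at 9 weeks and in at least 4 at 14 weeks, and in at least 3 for the model of 15 libraries. Levels of the ages stand side by side with no test, since the tables were made separately. For rescaling, the ratio of each miRNA to its geometric mean within the age was taken, and each library was divided by its median ratio, over 122 miRNAs at 9 weeks and 120 at 14 weeks that averaged 5 RPM or more without any 0. Mature sequences from RefSeq matched 218 of the 248 miRNAs (87.9%), and the fit with GC correction covers these; the miR-378a arms were not in it. The limma fit was also run on simulated data with independent noise on rescaled levels. Those data had no shift or depth difference between libraries, so they do not check the fits as deposited.

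The 4 miRNAs and the lists were chosen with earlier results of these data known. All 4 are named in every comparison, up to 4 miRNAs per list by smallest p, and the 3 closest by correlation. Marker lists for stellate cells, lymphocytes and bile duct cells were also summed: over all libraries they held 496 to 3011, 4935 to 8207 and 22.7 to 103.4 RPM, and muscle miRNAs were not analysed here. No sum, share or ratio over members was given a p. The alternatives tried were other scalings, pseudocounts and filters, 1 model for both ages, the lane, a replicate block and leaving out each library.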

Additional observations from a re-analysis of the deposited data

How the results depend on the processing

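Other pseudocounts (0.1 and 2), no filter or a minimum of 10 RPM, no robust option and 1 model for both ages changed no member's call or direction. At 9 weeks 67 miRNAs were past the threshold (9 higher, 58 lower), against 38 (20 higher, 18 lower) after rescaling, 35 (19 higher, 16 lower) at the same sum of listed miRNAs and 39 (18 higher, 21 lower) with GC correction. The log2 fold change of miR-103-3p was then −0.56, −0.60 and −0.53, no longer past the threshold. That of miR-107-3p turned to 0.022 after rescaling and 0.046 with GC correction, and that of miR-378a-3p to 0.069 after rescaling and 0.027 at the same sum. Without 1 library each, 9-week values ranged from −1.21 to −0.92 for miR-103-3p (adjusted p 0.0122 to 0.0391, limma), −0.67 to −0.35 for miR-107-3p, −0.72 to −0.13 for miR-378a-3p and −0.87 to −0.20 for miR-378a-5p. At 14 weeks 26 miRNAs (20 higher, 6 lower) were past the threshold, 48 after rescaling (26 higher, 22 lower), 48 at the same sum, 48 in 1 model, 1 in lane 1 alone and 51 in lane 2 alone. Without 1 library each the count ranged from 13 to 46, with 46 without wt replicate 1, 15 without wt replicate 3 and 13 without ob/ob replicate 3. miR-378a-3p at 14 weeks ranged from −0.17 to 0.044 and was 0.16 in lane 2 alone. For the difference between the ages, rescaling turned miR-103-3p to −0.014, miR-378a-3p to −0.35 and miR-378a-5p to −0.47; without 1 library each miR-378a-5p ranged from −0.059 to 0.61 and the count from 0 to 3. Rescaled means were 49.8 RPM for miR-103-3p in ob/ob at 9 weeks, 120.6 RPM for miR-107-3p in wt at 9 weeks and 128 RPM in ob/ob at 14 weeks. The difference in the arm ratio of miR-378a at 9 weeks ranged from −3.52 to 22.2. Levels rescaled and ratios without 1 library were chosen after seeing the data. The cause of these changes was not tested.

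Same-numbered libraries did not stand out as pairs: they correlated between −0.31 and 0.18 at 9 weeks and −0.23 and 0.31 at 14 weeks, and 1 of 3 wt libraries at 9 weeks and 1 of 4 at 14 weeks correlated best with its own number. The labels do not say what a number marks, and so few libraries cannot show whether numbers mark pairs. At 9 weeks no ob/ob library is numbered 4. A replicate block then compares 3 pairs, and wt replicate 4 adds nothing to the genotype difference. With the replicate block, 32 miRNAs were past the threshold at 9 weeks and miR-103-3p was at −1.21 (adjusted p = 0.0430, limma). With the block and rescaling there were 13, with miR-103-3p at −0.70 (adjusted p = 0.240, limma), miR-107-3p at 0.043 and miR-378a-3p at 0.049. Depth limits miR-378a-5p most, at 132 reads in the shallowest library.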
